A study of Mus musculus with 18 samples.

Results

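The growth hormone and prolactin axis was taken as 10 genes matched by symbol, of the 24054 listed for each tissue: the hormones Gh and Prl, the receptors that act on growth hormone release (Ghrhr, Ghsr, Sstr1, Sstr2, Sstr3 and Sstr5), the dopamine receptor Drd2 and the prolactin receptor Prlr. All 10 were present in the pituitary, hypothalamus and thyroid tables. RNA came from untreated male mice of strain C57BL/Ntac, 3 months old. WT mice (numbers 1, 2 and 43) were compared with K146Q mice (numbers 60, 62 and 83), which carry in every cell a Thrb in which lysine at this position is replaced by glutamine, so that the receptor lacks a site for SUMO attachment. The change is present in all receptor isoforms, was made by gene targeting, and is a single base, so the level of Thrb does not check the genotype labels. Thrb measured 103 ± 4.35 CPM (read counts scaled to the library size, SD, n = 3) in WT pituitaries against 162 ± 20.9 in K146Q pituitaries (log2 difference 0.65, limma adjusted p = 0.00285), 27.9 ± 0.914 against 27.6 ± 2.08 CPM in the hypothalamus, and 15.6 ± 0.679 against 5.94 ± 1.13 CPM in the thyroid (SD, n = 3, log2 difference -1.33, limma adjusted p = 0.000621). There were 3 libraries of each genotype in each tissue, 18 in all, with 14902330 to 21230050 reads a library.

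Growth hormone is made by somatotrophs and prolactin by lactotrophs, both of which arise in the anterior pituitary under the transcription factor POU1F1, like the thyrotrophs that make thyroid stimulating hormone. Growth hormone release is raised by GHRH through GHRHR and by ghrelin through GHSR, and is restrained by somatostatin through its SSTR receptors. Prolactin release is restrained by hypothalamic dopamine through DRD2, and prolactin acts on its targets through PRLR. Thyroid hormone, through its nuclear receptors, is a known regulator of the rodent Gh gene.

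The pituitary libraries carried their lineage marker Pou1f1 at 123 ± 13.5 CPM in WT mice against 109 ± 11.04 CPM in K146Q mice (SD, n = 3). Pou1f1 was at 0.0789 CPM in the WT hypothalamus and 0.253 CPM in the WT thyroid. The 6 hypothalamic neuron markers summed to 1646 to 1814 CPM in the hypothalamus libraries. Snap25 made up most of that sum, at means of 1241 CPM in WT and 1331 CPM in K146Q hypothalamus. It was also at 281 and 334 CPM in the WT and K146Q pituitary, so this sum is not specific to the hypothalamus. The 5 thyroid follicular markers summed to 89310 to 360600 CPM in the thyroid libraries. In the thyroid, the library of WT mouse 1 stood apart for pituitary hormone transcripts, with 5776 Gh reads against 1455 to 1972 in the other 5 libraries. The results on Gh and Prl that use it are also given without it.

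The promoter table (RefSeq, build GRCm38.p6) matched 6 of the 10 genes: Prl, Ghsr, Sstr2, Sstr3, Drd2 and Prlr. The 250 bases before the start of Prl and Ghsr are printed 5′ to 3′, because these were the members with the largest pituitary differences. Prl is at chr13:27057320-27057569 (plus strand) and Ghsr at chr3:27371101-27371350 (plus strand). Capitals mark matches on either strand to 2 motifs. These are TATNCAT, a core of the POU1F1 site, and AGGNCA, a looser form of the nuclear receptor half-site AGGTCA with 1 free base. Every AGGTCA is also an AGGNCA.
Prl: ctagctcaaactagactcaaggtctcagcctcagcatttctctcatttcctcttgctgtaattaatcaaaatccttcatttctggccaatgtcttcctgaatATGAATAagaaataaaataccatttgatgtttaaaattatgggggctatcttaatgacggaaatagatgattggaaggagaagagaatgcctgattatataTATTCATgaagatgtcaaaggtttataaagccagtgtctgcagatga
Ghsr: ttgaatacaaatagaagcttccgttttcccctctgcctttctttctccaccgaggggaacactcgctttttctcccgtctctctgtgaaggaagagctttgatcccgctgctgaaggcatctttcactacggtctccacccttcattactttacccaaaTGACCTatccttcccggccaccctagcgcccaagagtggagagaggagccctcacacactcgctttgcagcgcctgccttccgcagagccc
The Prl window held 2 matches to TATNCAT, from base -148 to -142 and from base -47 to -41 counted from the start, and none to AGGNCA. The Ghsr window held 1 match to AGGTCA, from base -91 to -86 on the minus strand, and none to the POU1F1 core. Of 32851 promoter windows of this length, 7.92% held TATNCAT, 14.0% held AGGTCA and 51.3% held AGGNCA. The Sstr2 and Drd2 windows held none of these letters, both Sstr3 windows held AGGNCA, and 2 of the 3 Prlr windows did. No Sstr3 or Prlr window held AGGTCA. These matches describe the letters only, and binding was not measured.

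In the K146Q pituitary 4 of the 10 genes were lower than in WT and none was higher. They were Prl, Ghsr, Sstr5 and Ghrhr, and all 10 genes passed the filter on low values. Ghsr passed it only through its WT libraries, where it is higher, so its direction is no result. Over all 15589 genes tested, 9.86% were called (limma, adjusted p under 0.05), 3.5% lower and 6.36% higher. Without the filter none of the 10 was called. With library totals taken without the 10 highest genes 5 were, Sstr1 being added, and the calls over all genes went from 991 higher and 546 lower to 841 higher and 885 lower. The median log2 difference was -0.45 over the 10 genes and -0.01 over all genes tested. The ranges of the genotypes did not overlap for 6 of the 10, all lower in K146Q, against 31.0% of all genes without overlap and 14.3% lower without overlap. In bulk tissue, fewer cells of a type and less RNA per cell cannot be told apart.

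**Figure D1:**
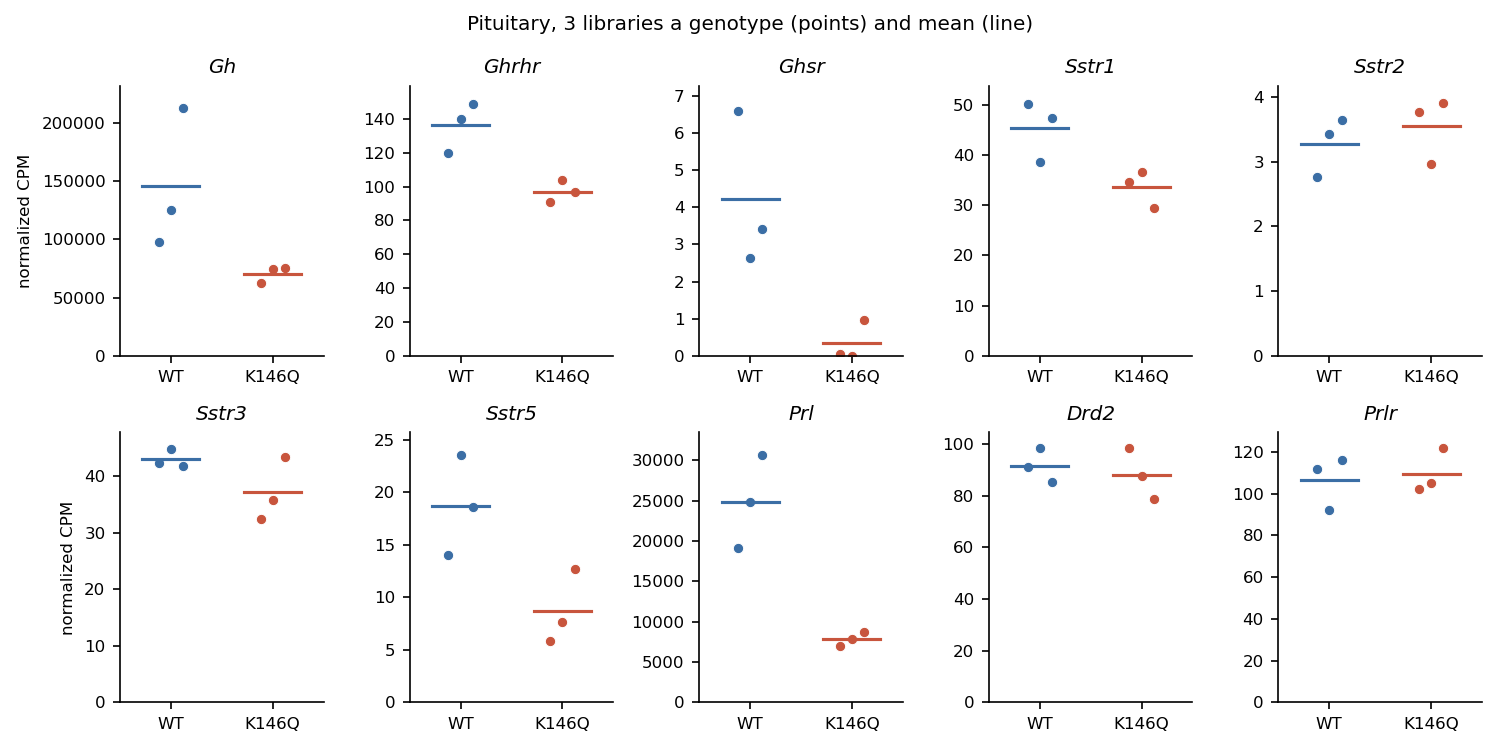
Normalized CPM (linear axis from 0, one scale a gene) of the 10 genes in each of the 6 pituitary libraries, WT in blue and K146Q in red, with the mean as a line. Gh, Ghrhr, Ghsr, Sstr1, Sstr5 and Prl show all 3 K146Q libraries under all 3 WT libraries, while Sstr2, Sstr3, Drd2 and Prlr overlap.

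Prl (chromosome 13, bases 27057570 to 27065205 in GRCm38) was the member with the firmest change. Its normalized CPM was 19074, 24885 and 30662 in the WT pituitaries and 6929, 7823 and 8664 in the K146Q pituitaries. Every K146Q library was well below the lowest WT library. The means were 24873 ± 5794 and 7805 ± 867 (SD, n = 3), a 3.19-fold difference, with a log2 difference of -1.65 (SE 0.18, limma adjusted p = 0.000603). Prl stood at rank 2 of all genes by mean level in WT pituitaries and at rank 8 in K146Q pituitaries. The call held in each of the 6 fits that left out a mouse.

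Gh (chromosome 11, bases 106300271 to 106301865, minus strand) was the most abundant transcript of the pituitary in both genotypes. It measured 97779, 125476 and 213048 CPM in WT and 62503, 74182 and 75385 CPM in K146Q pituitaries. The WT libraries were spread widely, with mouse 43 far above the others, and the K146Q libraries lay close together under all of them. The log2 difference of -0.97 (SE 0.30) did not pass the test (limma, adjusted p = 0.0737), with a 95% interval from -1.64 to -0.30. On the reads recovered from the same values it passed by edgeR (adjusted p = 0.0246) and by DESeq2 (adjusted p = 0.0354). Without WT mouse 43 the log2 difference was -0.65 (limma, adjusted p = 0.0937).

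The reads of both hormones made up a large part of each pituitary library. Gh and Prl together took 12.9% to 23.7% of all reads in WT and 7.52% to 9.14% in K146Q pituitaries (means 17.5% and 8.50%). Within the reads of 7 pituitary hormone genes (Gh, Prl, Pomc, Tshb, Cga, Lhb and Fshb), the share of Gh was 77.2% ± 5.10 in WT and 61.8% ± 4.86 in K146Q mice (SD, n = 3, exact two-sided permutation test, p = 0.1). The share of Prl was 13.7% ± 1.58 and 6.83% ± 0.722 (SD, n = 3, exact permutation test, p = 0.1). An exact test of 3 mice against 3 cannot give a p below 0.1. Tshb, the thyroid stimulating hormone subunit, went from 0.258% to 6.12% of these reads, and Cga, the subunit it shares with the gonadotropins, from 1.99% to 16.4%. A share falls when another rises, so these shares are not independent of one another.

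The number of Gh reads for each Prl read does not depend on the library's scaling, and was 5.13, 5.04 and 6.95 in the WT pituitaries and 9.02, 9.48 and 8.70 in the K146Q pituitaries. The ratio was higher in all 3 K146Q libraries than in any WT library, 9.07 ± 0.393 against 5.71 ± 1.08 (SD, n = 3, exact two-sided permutation test, p = 0.1). It differed by 0.68 on the log2 scale, and by 0.60 to 0.83 when a mouse was left out.

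**Figure D2:**
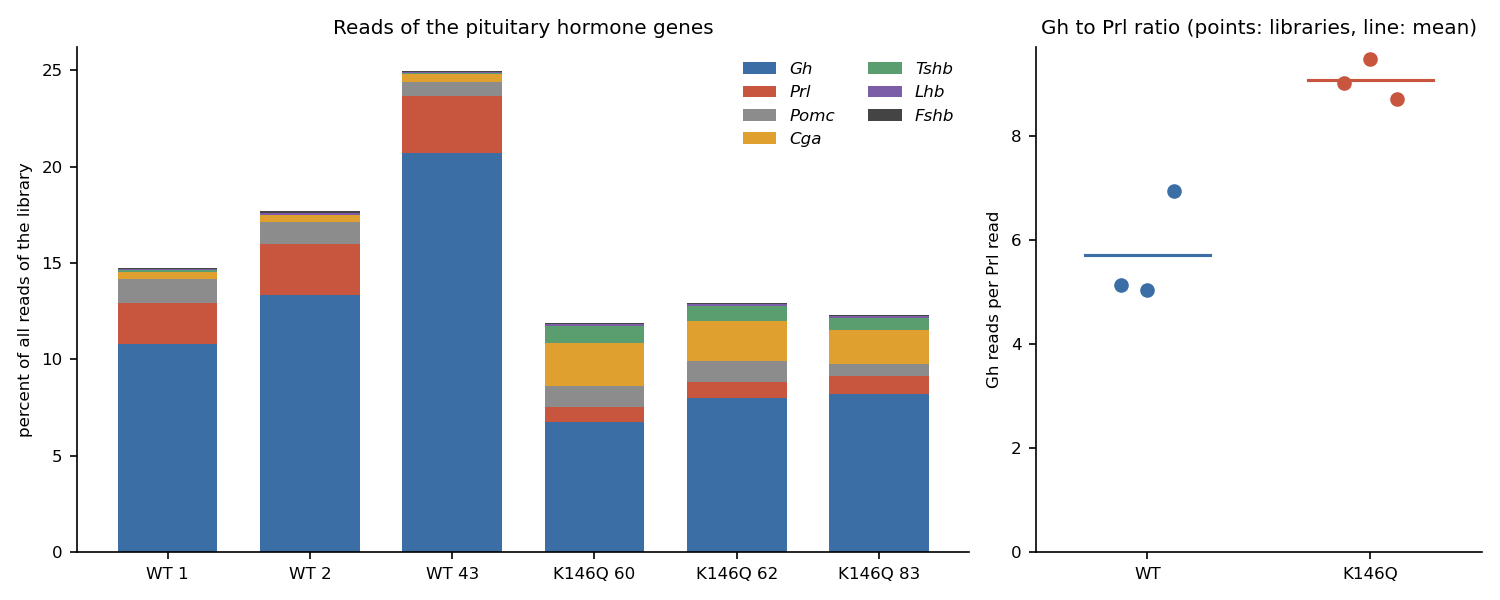
Left, percent of all reads taken by each of 7 pituitary hormone genes in each pituitary library (stacked bars from 0); right, Gh reads per Prl read, with libraries as points and the mean as a line. Gh and Prl together reach 12.9% to 23.7% of reads in the WT libraries against 7.52% to 9.14% in the K146Q libraries, and the ratio runs from 5.04 to 6.95 in WT and from 8.70 to 9.48 in K146Q pituitaries.

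Both receptors that raise growth hormone release had lower values, that of Ghsr with the limit of the filter given above. Ghrhr, the GHRH receptor (chromosome 6, 55376295 to 55388530), measured 120, 140 and 149 CPM in WT and 90.7, 104 and 96.8 CPM in K146Q pituitaries. The K146Q libraries lay below all WT libraries, by a smaller factor than for the hormones. The means were 136 ± 14.97 and 97.1 ± 6.59 (SD, n = 3), with a log2 difference of -0.48 (SE 0.0937, limma adjusted p = 0.0116). The call was lost without K146Q mouse 60 (adjusted p = 0.0669). Set against its own cell type's hormone, Ghrhr reads were 0.101% ± 0.0277 of Gh reads in WT and 0.138% ± 0.00860 in K146Q mice (SD, n = 3, exact permutation test, p = 0.1).

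Ghsr, the ghrelin receptor, had the largest difference of the 10 genes in this comparison and few reads. It passed the filter only through its WT libraries, where it is higher, so its direction is no result. The WT pituitaries held 148, 46 and 60 Ghsr reads (6.58, 2.63 and 3.42 CPM), and the K146Q pituitaries held 1, 0 and 19 (0.0516, 0 and 0.953 CPM). In K146Q mice 60 and 62 the transcript was below the level of 3 reads that a count of 0 allows, which is 0.133 to 0.19 CPM across the libraries, and mouse 83 accounted for nearly all K146Q reads. The log2 difference was -2.59 (SE 0.42, limma adjusted p = 0.00507), on a scale with 0.5 added that understates changes at such levels. DESeq2 on the reads did not call it (log2 difference -3.65, adjusted p = 0.12).

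The somatostatin receptors, which restrain hormone release, did not all move alike. Sstr5 measured 14.0, 23.6 and 18.6 CPM in WT and 5.88, 7.61 and 12.7 CPM in K146Q pituitaries. The highest K146Q library was close to the lowest WT library, without overlap. The log2 difference was -1.10 (SE 0.26, limma adjusted p = 0.0289), and the call was lost without the variance trend (adjusted p = 0.0726) and without WT mouse 2, WT mouse 43, K146Q mouse 60 or K146Q mouse 62 (adjusted p = 0.0977, 0.0602, 0.114 and 0.0969).

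Sstr1 lay just outside the threshold, with 50.1, 38.7 and 47.3 CPM in WT and 34.6, 36.5 and 29.5 CPM in K146Q pituitaries. Again the groups did not overlap, and the log2 difference was -0.43 (SE 0.12, limma adjusted p = 0.0513, edgeR adjusted p = 0.0488, DESeq2 adjusted p = 0.0137). Without WT mouse 2 it passed (limma, adjusted p = 0.0252). Sstr3 measured 41.9 to 44.8 CPM in WT and 32.4 to 43.4 CPM in K146Q mice (log2 difference -0.22, 95% interval -0.46 to 0.03, limma adjusted p = 0.251). Its K146Q mouse 83 was level with the WT libraries. Sstr2, at only 58 to 78 reads a library, measured 2.76 to 3.65 CPM in WT and 2.96 to 3.91 CPM in K146Q mice (log2 difference 0.10, 95% interval -0.28 to 0.48, limma adjusted p = 0.766).

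The dopamine and prolactin receptors overlapped between the genotypes. Drd2, through which dopamine acts on lactotrophs, measured 91.2, 98.4 and 85.2 CPM in WT and 98.2, 87.4 and 78.7 CPM in K146Q pituitaries. The groups overlapped over most of their ranges, with a log2 difference of -0.06 (95% interval -0.27 to 0.15, limma adjusted p = 0.75). Prlr measured 112, 92.0 and 116 CPM in WT and 102, 105 and 122 CPM in K146Q pituitaries, a log2 difference of 0.04 (95% interval -0.19 to 0.28, limma adjusted p = 0.843). Its sign turned to -0.01 when library totals were taken without the 10 highest genes.

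Levels were compared between genes per kilobase of annotated exon. In WT pituitaries the order by mean CPM per kilobase was Gh (168717), Prl (17666), Ghrhr (39.1), Drd2 (36.0), Sstr1 (22.2), Sstr3 (9.95), Prlr (6.96), Sstr5 (6.85), Sstr2 (1.53) and Ghsr (0.950). The ranges of Ghrhr and Drd2 overlapped, as did those of Prlr and Sstr5 and those of Sstr2 and Ghsr, so these neighbours did not differ beyond their spread. In K146Q pituitaries Drd2 (30.9 to 38.6 CPM per kilobase) stood above Ghrhr (26.0 to 29.8) without overlap, and Prlr (6.67 to 7.93) stood above Sstr5 (2.15 to 4.64). The exon length of Prlr, 15339 bases over all its isoforms, lowers its value per kilobase against genes with short transcripts. A read-through gene on the same strand, Gm21973, shares exons with Prlr, so its reads could be split between them.

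The markers of neighbouring cell types moved in different directions, where 6.36% of all genes tested were called higher and 3.5% lower. All 3 lactotroph markers outside the 10 genes were lower in K146Q pituitaries: Angpt1 fell by 1.60, Agtr1a fell by 1.11 and Edil3 fell by 1.07 on the log2 scale (limma, adjusted p = 0.00334, 0.00152 and 0.00665). Their summed level was 180 to 267 CPM in WT and 73.2 to 123 CPM in K146Q mice. Of 5 somatotroph markers, Neurod4, a transcription factor of the lineage, fell by 1.002 (limma, adjusted p = 0.00976), Dlk1 rose by 1.54 (limma, adjusted p = 0.000338), and Pou1f1, Foxo1 and Pappa2 did not pass (-0.18, -0.13 and -0.39, limma, adjusted p = 0.298, 0.499 and 0.484). All 4 thyrotroph markers (Tshb, Cga, Trhr and Dio2) were higher, Tshb by 4.03 and Cga by 2.42 (limma, adjusted p = 9.24e-05 and 3.65e-05). None of the 4 gonadotroph, 4 corticotroph or melanotroph, 4 stem cell and 3 posterior lobe markers was called, and 3 of 4 leukocyte markers were higher (summed level 53.4 to 65.2 CPM in WT, 85.7 to 128 CPM in K146Q). Of 4 endothelial markers 1 was higher (Pecam1, by 0.45), as were 1 of 6 hypothalamic neuron markers (Snap25, by 0.25) and 1 of 3 parathyroid markers (Casr, by 2.61, limma adjusted p = 0.00998, 0.0448 and 0.000232). None of these markers was at 0 in every library, and their part in the results on the 10 genes was not tested.

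Outside the 10 genes, 16 genes of the growth hormone pathway were listed and 12 were tested in the pituitary, of which 2 were higher and 2 lower. Over all 15589 genes tested there, 6.36% were called higher and 3.5% lower. Stat5a, which carries the signal of both hormone receptors to the nucleus, fell by 0.56 on the log2 scale, from 47.5 ± 7.78 to 31.7 ± 2.07 CPM (SD, n = 3, limma adjusted p = 0.0194). Igf1r, the receptor of the growth factor made in response to growth hormone, fell by 0.41, from 261 ± 44.0 to 194 ± 9.33 CPM (SD, n = 3, limma adjusted p = 0.0453). The higher genes had few reads. Igfals, a carrier of that growth factor, had 0 to 6 reads in WT and 16 to 43 in K146Q libraries (log2 difference 1.43, limma adjusted p = 0.0199), and Sstr4, a further somatostatin receptor, had 6 to 19 and 29 to 45 (log2 difference 1.07, limma adjusted p = 0.0231). Igfals passed the filter only through its K146Q libraries, where it is higher, so its direction is no result. Sstr4 did not meet the filter on its WT libraries alone (0.343 to 0.845 CPM), so its direction is no result either. The median log2 difference over the 12 was -0.20, against -0.01 over all genes tested.

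Of 17 genes of the prolactin pathway, 14 were tested in the pituitary, 3 were higher and 1 was lower, with a median log2 difference of 0.18. Over all genes tested 6.36% were higher and 3.5% lower, with a median of -0.01. Th, which encodes the rate-limiting enzyme of dopamine synthesis, measured 3.43, 3.83 and 1.54 CPM in WT and 112, 42.4 and 27.6 CPM in K146Q pituitaries. The K146Q libraries were far above WT and spread among themselves, with a log2 difference of 3.98 (SE 0.45, limma adjusted p = 0.000743). Slc6a3, the dopamine transporter, had 2 to 4 reads a library in WT and 70 to 86 in K146Q pituitaries (log2 difference 2.84, limma adjusted p = 6.07e-05). It passed the filter only through its K146Q libraries, where it is higher, so its direction is no result. Trhr, whose ligand TRH stimulates lactotrophs as well as thyrotrophs and which is also on the thyrotroph list, rose by 2.75 (limma, adjusted p = 0.000228). Gal, a peptide made in lactotrophs, fell by 1.57, from 8.54, 12.6 and 30.9 CPM to 7.28, 4.24 and 3.36 CPM (limma, adjusted p = 0.0408). Esr1, the estrogen receptor that drives Prl, was at 140 ± 37.7 CPM in WT and 87.6 ± 17.7 CPM in K146Q mice (SD, n = 3, log2 difference -0.66, limma adjusted p = 0.054).

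The genes whose values followed a member most closely over the 6 pituitary libraries were found by the root mean square difference of centred log2 values among 14624 genes. For Gh they were Trib1 (0.137), Slc16a5 (0.148) and Angptl4 (0.152). For Prl they were Upk3a (0.153), Olfml2b (0.172) and Syt12 (0.191). For Ghrhr they were Sprn (0.0404), 4930581F22Rik (0.0494) and Capn15 (0.0516). For Ghsr they were C2cd4c (0.32), Pira1 (0.516) and Gpr83 (0.54), further away than the neighbours of the other 3 genes. The measure includes the difference between genotypes and is given as a description.

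In the hypothalamus, which makes the peptides and dopamine that govern these pituitary cells, none of the 9 members that passed the filter was called, and 0 of 15761 genes were (0.0% called; limma; edgeR 0 genes, DESeq2 9 genes). At an unadjusted p under 0.05 limma gave 645 genes, of which Prl and Ghsr were members. These 645 are a smaller share of the 15761 than the 0.05 that arises with no difference, so the 2 members are given as a description. Ghsr measured 5.79, 6.30 and 5.34 CPM in WT and 4.71, 4.20 and 4.68 CPM in K146Q mice. The K146Q libraries were lower without overlap, with a log2 difference of -0.33 (SE 0.12, limma adjusted p = 0.998). Prl went the other way, with 178 to 244 reads in WT and 289 to 291 in K146Q libraries (log2 difference 0.34, SE 0.12, limma adjusted p = 0.998). Among all genes 9.14% did not overlap, 4.94% being lower in K146Q.

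Gh and Prl were low in the hypothalamus beside their pituitary levels. Gh measured 83.4 to 93.4 CPM in WT and 82.0 to 113 CPM in K146Q hypothalamus, 0.0604% and 0.136% of the pituitary means of the same genotypes. Prl was at 0.0501% and 0.203% of the pituitary means. The markers of other pituitary cells were found there too, with 51 to 61 Tshb reads in WT and 51 to 153 in K146Q libraries. Whether Gh and Prl reads arose in hypothalamic cells or in pituitary tissue was not tested. Ghrhr, with 1 to 5 reads, did not pass the filter. For the receptors other than Ghrhr and Ghsr the log2 differences ran from -0.30 for Sstr5 to 0.10 for Drd2, each with an interval that included 0.

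The hypothalamic genes that feed the axis gave no call. Of the 16 growth hormone pathway genes 14 were tested and none was called, nor was any of the 15 tested prolactin pathway genes. Igf1r was at 118 ± 2.47 CPM in WT and 117 ± 5.78 CPM in K146Q hypothalamus (SD, n = 3, log2 difference -0.0039, limma adjusted p = 0.998). Sst, the somatostatin precursor, was at 77.5 ± 14.3 CPM in WT and 71.0 ± 5.99 CPM in K146Q hypothalamus (SD, n = 3, log2 difference -0.11, limma adjusted p = 0.998). Ghrh, the releasing hormone, was at 2.59 ± 1.08 CPM and 2.15 ± 0.337 CPM (SD, n = 3, log2 difference -0.18, limma adjusted p = 0.998). The dopamine genes Th (33.8 ± 2.01 and 33.7 ± 5.57 CPM) and Ddc (34.6 ± 1.196 and 33.6 ± 3.33 CPM) had log2 differences of -0.01 and -0.04 (SD, n = 3, limma adjusted p = 0.998 for both).

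In the thyroid, Prlr was the abundant member and was lower in K146Q mice. It measured 919, 728 and 664 CPM in WT and 321, 311 and 403 CPM in K146Q thyroids. The lowest WT library was well above the highest K146Q library. The means were 770 ± 132 and 345 ± 50.7 (SD, n = 3), a log2 difference of -1.15 (SE 0.16, limma adjusted p = 0.00133), and the call held in each fit that left out a mouse. Prlr stood at rank 79 by mean level in the WT thyroid, and its level per kilobase was 50.2 in WT thyroid, 6.96 in WT pituitary and 2.85 in WT hypothalamus.

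Of the 6 members tested in the thyroid, Prlr and Sstr1 were called, where 37.8% of 15200 genes were called, 18.1% lower and 19.7% higher (2747 and 2992 genes, or 3629 and 2502 with totals taken without the 10 highest genes). Sstr1 had few reads, 13, 8 and 11 reads in WT and 4, 0 and 1 in K146Q libraries (log2 difference -0.99, limma adjusted p = 0.0149). It passed the filter only through the WT libraries, where it is higher, so its direction is no result. It lost its call without K146Q mouse 62 (adjusted p = 0.0639), it was not tested without any one of the WT mice, where it fell under the filter, and such counts allow no firm size. Among all genes 52.3% did not overlap, 25.7% being lower in K146Q, and Prlr, Sstr1 and Prl were the tested members without overlap.

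**Figure D3:**
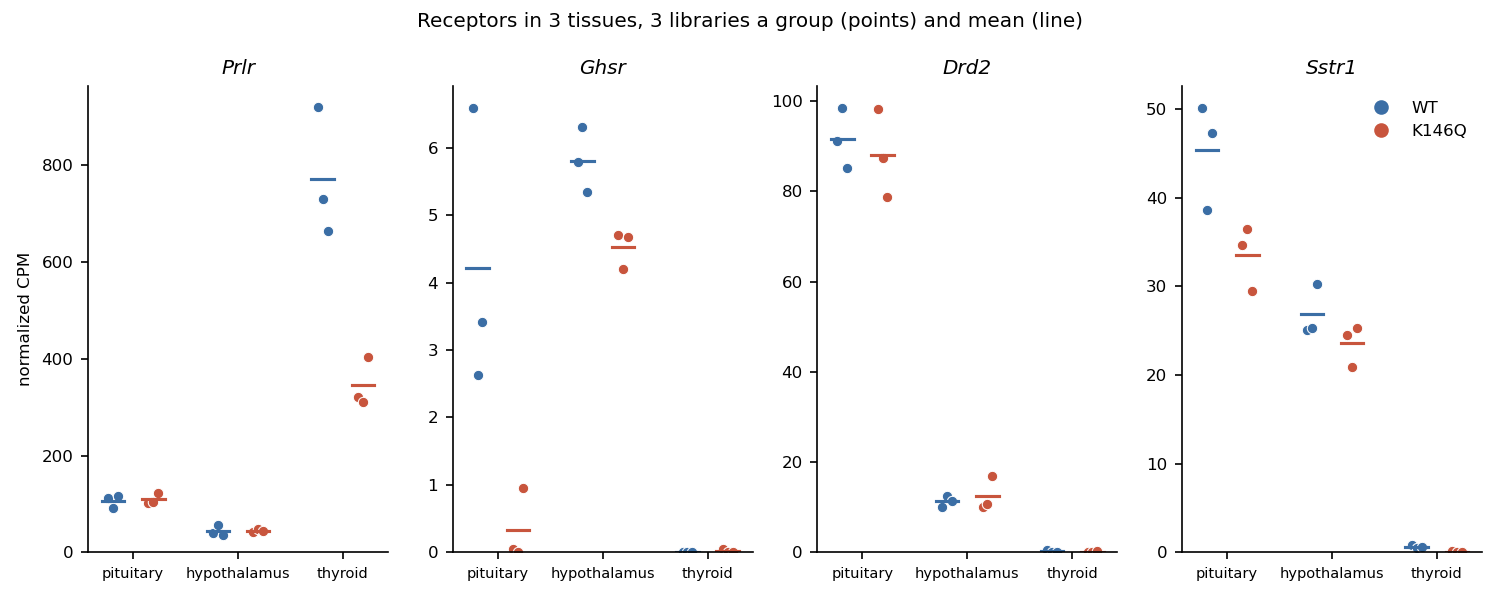
Normalized CPM (linear axis from 0, one scale a gene) of Prlr, Ghsr, Drd2 and Sstr1 in the 3 tissues, 3 libraries a genotype as points with the mean as a line, WT in blue and K146Q in red. Prlr is highest in the thyroid, where the WT libraries (664 to 919 CPM) lie above the K146Q libraries (311 to 403 CPM), and Ghsr is near 0 in the thyroid.

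Gh and Prl were found in the thyroid at levels far below the pituitary, and neither passed the test. Prl measured 44.6, 18.8 and 15.9 CPM in WT and 11.1, 12.1 and 15.1 CPM in K146Q thyroids (log2 difference -0.88, SE 0.35, limma adjusted p = 0.085, DESeq2 adjusted p = 0.00857). Without WT mouse 1, the highest library, the log2 difference was -0.44 (limma, adjusted p = 0.0966), and without WT mouse 43 it was -1.16 (limma, adjusted p = 0.0361). Gh measured 365, 125 and 99.6 CPM in WT and 72.1, 87.4 and 108 CPM in K146Q thyroids (log2 difference -0.91, SE 0.44, limma adjusted p = 0.142), and without WT mouse 1 it was -0.34 (limma, adjusted p = 0.194). WT mouse 1 was the highest library for both hormones and also for Tshb (568 reads against 38 to 97 in the other 5), Cga (1519 against 134 to 274) and Pomc (830 against 135 to 167). The part of pituitary tissue in these values was not tested. Ghsr (0 to 1 read), Sstr5 (0 to 2), Sstr2 (1 to 6) and Drd2 (0 to 9) did not pass the filter, and Ghrhr (7 to 20 reads) and Sstr3 (7 to 17 reads) passed it without a call.

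Other genes of both pathways differed in the thyroid, where 37.8% of 15200 genes tested were called, 18.1% lower and 19.7% higher. Of 10 growth hormone pathway genes tested, Igf1 rose by 1.82 on the log2 scale, from 52.7 ± 8.19 to 188 ± 36.5 CPM (SD, n = 3, limma adjusted p = 0.000224). Sst fell by 2.92, Igfals fell by 1.32, Stat5a fell by 0.74 and Stat5b fell by 0.56 (limma, adjusted p = 0.000249, 0.00236, 0.00322 and 0.0119). Of 9 prolactin pathway genes tested, Socs3, an inhibitor of cytokine receptor signals, rose by 2.01 and Trhr rose by 2.33 (limma, adjusted p = 0.000199 and 0.000324), while Ddc, Pgr, Esr1 and Slc6a3 were lower. Trhr passed the filter only through its K146Q libraries, and Sst, Pgr and Slc6a3 only through their WT libraries, so these directions are no result. Markers of other cells differed as well: all 4 adipocyte and all 3 parathyroid markers were lower, and all 4 leukocyte and 3 of 4 endothelial markers were higher. The adipocyte marker Ucp1 did not meet the filter on its K146Q libraries alone (0.293 to 8.58 CPM), so its direction is no result. The summed levels were 249 to 390 CPM in WT and 34.8 to 69.0 CPM in K146Q thyroids for adipocyte markers, 3454 to 6409 and 523 to 1569 CPM for parathyroid markers, 104 to 167 and 320 to 414 CPM for leukocyte markers, and 734 to 751 and 994 to 1052 CPM for endothelial markers. The follicular markers summed to 298600 to 360600 CPM in WT and 89310 to 136700 CPM in K146Q thyroids, with 2 of 5 higher (Tshr and Pax8) and 1 lower (Foxe1). Tg made up most of that sum, at 333547 ± 34931 and 103501 ± 24116 CPM (SD, n = 3). Its ranges did not overlap, but limma gave it an SE of 5.14 and no call (log2 difference -1.71, adjusted p = 0.82). The C cell markers summed to 2165 to 2673 and 207 to 351 CPM, with 1 of 3 higher and 2 lower. The higher one, Calcb, passed the filter only through its K146Q libraries, so its direction is no result. The part of these cells in the difference of Prlr was not tested.

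**Figure D4:**
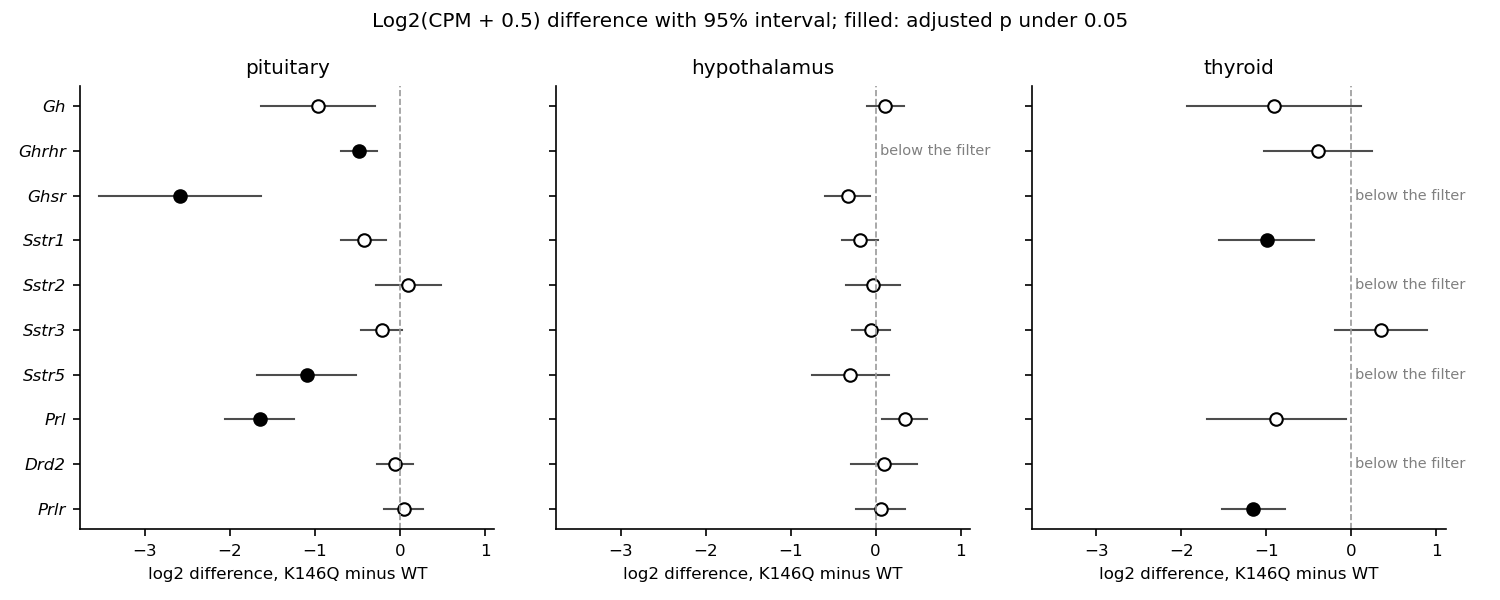
Difference in log2(CPM + 0.5) between K146Q and WT for each of the 10 genes in the 3 tissues, with the 95% interval as a line; filled points passed the limma test and genes below the filter on low values are marked. Prl (-1.65), Ghsr (-2.59), Sstr5 (-1.10) and Ghrhr (-0.48) are filled in the pituitary, none in the hypothalamus, and Prlr (-1.15) and Sstr1 (-0.99) in the thyroid.

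Whether the genotype difference itself depended on the tissue was tested on all 18 libraries. Against the hypothalamus, 2 of the 10 genes differed, Prl and Ghsr, where 3.24% of 17140 genes were called, 0.945% with the lower value in the pituitary (393 genes higher and 162 lower, or 335 and 233 with totals taken without the 10 highest genes). The Prl difference was -1.65 in the pituitary and 0.34 in the hypothalamus, a gap of -2.00 on the log2 scale (SE 0.38, limma adjusted p = 0.00556). For Ghsr the gap was -2.26 (SE 0.45, limma adjusted p = 0.00801), not called by edgeR (adjusted p = 0.0546) or DESeq2 (adjusted p = 0.155), nor without WT mouse 1, K146Q mouse 60 or K146Q mouse 62 (adjusted p = 0.0513, 0.0928 and 0.0759). Without K146Q mouse 60 the Prl call was also lost (limma, adjusted p = 0.0719). The Gh gap of -1.08 (SE 0.50, limma adjusted p = 0.318) did not pass, and it passed without WT mouse 1 (-1.38, adjusted p = 0.0266), whose pituitary library was the lowest WT library for Gh.

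Against the thyroid limma called 5 of the 10 genes, where 33.8% of 17140 genes were called. The Prlr difference was 0.04 in the pituitary and -1.15 in the thyroid, a gap of 1.195 on the log2 scale (SE 0.21, limma adjusted p = 0.00036). For Ghsr (-2.63, limma adjusted p = 0.000264) and Sstr5 (-1.04, limma adjusted p = 0.029) the thyroid held almost no reads, so these values carry little beyond the pituitary's own difference, and edgeR called neither (adjusted p = 0.334 and 0.992), nor did DESeq2 (adjusted p = 0.0957 and 0.983). Sstr1 (0.57, limma adjusted p = 0.0498) and Sstr3 (-0.56, limma adjusted p = 0.0499) stood at the threshold. Sstr1 kept its call only without K146Q mouse 60 and Sstr3 only without WT mouse 1 (limma, adjusted p = 0.0716 to 0.243 and 0.065 to 0.182 in the other fits without a mouse), and Sstr5 lost it without WT mouse 2, WT mouse 43, K146Q mouse 60 or K146Q mouse 62 (0.0626 to 0.121). With the mouse number as a replicate block Sstr3 was no longer called (limma, adjusted p = 0.0522), while Sstr1, Sstr5, Ghsr and Prlr were. Prl and Gh did not pass (-0.77 and -0.06, limma adjusted p = 0.131 and 0.943), but without WT mouse 1, whose thyroid library stood apart, they did, at -1.39 (adjusted p = 0.000314) and -0.87 (adjusted p = 0.0393). That fit also left out the pituitary library of WT mouse 1, the lowest WT library for both hormones. In the pituitary alone its removal moved Prl from -1.65 to -1.83 and Gh from -0.97 to -1.21, so the change is not the thyroid library's alone.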

How the data were processed

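Libraries were sequenced on an Illumina HiSeq system, and the submitters' processing notes name bcl2fastq 2.17, Bowtie2 2.1.0, RSEM 1.2.15 and build mm10. For each tissue the authors deposited a signal per gene and library in CPM of the scaled library size. Their own fold changes and p-values were not used. Dividing by the worth of 1 read gave whole reads (within 0.01) for 100.0% of 432972 values, and 3 reads were worth 0.133 to 0.19 CPM. No pair of replicates was as close as sampling alone would give (chi-square per degree of freedom at least 5.87).

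Log2(value + 0.5) was fitted for each tissue with limma 3.58.1 in R 4.3.3, using a variance prior that follows the mean. A gene entered where 3 libraries or more reached 0.5 CPM, and p-values were adjusted by Benjamini-Hochberg over all genes entered (threshold 0.05). Fold changes are on that log2 scale, which understates changes of low genes. Members under the filter were read from the fit without it. Differences between tissues used all 18 libraries (6 group means, 24027 shared symbols). edgeR 4.0.16 and DESeq2 1.42.0 were run on the recovered reads as alternatives. The fits were also run on simulated counts with the same fixed dispersion for all genes. That setting does not match the spread of these libraries, so nothing is drawn from it here. Positions and exon lengths are from GENCODE M21 (GRCm38). Strand-specific counting is not given in the sources used here.

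The 10 genes, the lists and the tests were chosen with earlier results of these data known. Named genes outside the 10 are, per list, those called (at most 4 by size) or otherwise the 2 most abundant, and the 3 nearest patterns of Gh, Prl, Ghrhr and Ghsr. Esr1, Ghrh, Pou1f1, Foxo1, Pappa2 and, in the thyroid, Stat5b, Slc6a3 and Tg fall outside this rule and were named after their values were seen. Not every called gene of the marker lists is named. Drd1 was matched by its older symbol. Tissues with the same number were taken as from the same mouse, since the series describes 3 mice of each genotype. The deviations of same-numbered libraries from their group means correlated at -0.027 to 0.174. Those of differently numbered libraries of the same genotype correlated at -0.144 to 0.0665. These ranges overlap, so they do not settle whether the mice are shared. No number is shared by the genotypes, so within a tissue the libraries are unpaired. P-values rest on the spread between the libraries of these mice, and those of limma also on the variance prior taken over all genes.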

Additional observations from a re-analysis of the deposited data

Results flagged for a closer look

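For 7 results the genotype difference was called as different between tissues by limma, which tested that difference over 18 libraries. Between pituitary and hypothalamus these were Prl, with -2.00 on the log2 scale (adjusted p = 0.00556; lower in 3 of 3 K146Q pituitaries), and Ghsr, with -2.26 (adjusted p = 0.00801). Between pituitary and thyroid they were Ghsr, with -2.63 (adjusted p = 0.000264), Prlr, with 1.195 (adjusted p = 0.00036), Sstr5, with -1.04 (adjusted p = 0.029), Sstr1, with 0.57 (adjusted p = 0.0498), and Sstr3, with -0.56 (adjusted p = 0.0499). Over all genes 3.24% and 33.8% were called in these comparisons. The thyroid values of Ghsr, Sstr5, Sstr1 and Sstr3 rest on 0 to 17 reads a library. For Ghsr (0 to 1 read) and Sstr5 (0 to 2 reads) the comparison with thyroid restates the pituitary difference, and Sstr1 and Sstr3 were not called in 5 of the 6 fits without a mouse, so these 4 are not counted as differences between tissues. With 3 libraries a group, no search for a library outside its group's range was possible.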

How the results depend on the processing

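Of 671 alternative values of single genes, 585 kept their direction and their side of the threshold, 46 lost a call, 11 gained one and 29 turned sign, none of the last with a call in either fit.

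In the pituitary 4 genes were called. Without the filter 0 were, where the fitted prior variance was 8386850 for Gh and 909 for Prl against residual variances of 0.176 and 0.0719. Gh was not called with the filter either. Ghrhr, Ghsr and Sstr5 also lost their calls (limma, adjusted p = 0.114, 0.118 and 0.222), and the variances of Gh and Prl do not bear on them. Leaving out a mouse gave 2 to 4. In the thyroid the count of 2 became 1 with at least 1 CPM in every library, and 1 to 2 without a mouse. For pituitary minus hypothalamus the count of 2 became 1 with at least 1 CPM in every library, by edgeR and by DESeq2, and 0 to 2 without a mouse. For pituitary minus thyroid the count of 5 became 3 with pseudocount 1, 2 without the filter, 1 with at least 1 CPM in every library, 2 by edgeR and 2 by DESeq2, and 2 to 6 without a mouse. With the replicate block the counts were 2 and 4, and Sstr3 was the call that changed.

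Log2 differences turned sign by edgeR and DESeq2 for pituitary minus thyroid in Gh (0.12 and 0.0715) and Ghrhr (0.32 and 0.28, and 0.11 with pseudocount 0.1), by edgeR for pituitary minus hypothalamus in Prlr (0.0036), and with totals without the 10 highest genes in pituitary Prlr (-0.0144). Leaving out a mouse moved these across 0: in the pituitary Sstr2 (-0.0048 to 0.21), Drd2 (-0.14 to 0.0197) and Prlr (-0.0609 to 0.11), in the hypothalamus Gh (-0.0048 to 0.22), Sstr2 (-0.21 to 0.0812), Sstr3 (-0.14 to 0.0272), Drd2 (-0.13 to 0.24) and Prlr (-0.0565 to 0.24), for pituitary minus hypothalamus Drd2 (-0.38 to 0.15) and Prlr (-0.30 to 0.16), and for pituitary minus thyroid Gh (-0.87 to 0.62), Ghrhr (-0.40 to 0.16), Sstr2 (-0.11 to 0.35) and Drd2 (-0.11 to 0.39). The cause was not tested.

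Totals without the 10 highest genes moved the split of calls over all genes from 991 higher and 546 lower to 841 and 885 in the pituitary, and from 2992 and 2747 to 2502 and 3629 in the thyroid. In the pituitary 1537 calls became 291 without the filter and 625 to 1345 without a mouse, and in the thyroid 5739 became 3602 to 5106 without a mouse. In the hypothalamus 0 calls became 12 without the filter and 0 to 6 without a mouse. For pituitary minus hypothalamus 555 calls became 831 by DESeq2 and 228 to 446 without a mouse. Depth limits Ghsr and Sstr2 in the pituitary and the receptors other than Prlr in the thyroid.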
